A study of Mus musculus with 25 samples.

Results

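Collagens VI, VII, VIII, XII, XIV, XV, XVI and XVIII were followed through 10 genes, Col6a1, Col6a2, Col6a3, Col7a1, Col8a1, Col12a1, Col14a1, Col15a1, Col16a1 and Col18a1, chosen by name from the 47729 genes of the bulk count table. All 10 passed the filter on low counts, which left 15773 genes. The cells were Lin- cells of the mouse lung, from which leukocytes (CD45), endothelium (CD31) and epithelium (CD326) had been sorted away, and the labels call them primary lung fibroblasts. Bulk RNA-seq covered 20 libraries in 5 groups of 4, and 10x single-cell RNA-seq covered 5 libraries, 1 for each group, each from pooled mice. Every mouse carried Col1-CreERT2, a tamoxifen-inducible Cre under the Col1a1 promoter, and floxed Fas alleles (exon 9). Naive Col1-CreERT2;Fas fl/fl mice received no bleomycin. The other 4 groups received bleomycin, an agent that injures the lung and starts fibrosis, at 1.5 U/kg into the trachea and were taken at 3 or 6 weeks. At each time, Col1-CreERT2;Fas+/+ mice had been given corn oil and Col1-CreERT2;Fas-/- mice tamoxifen, so that genotype and tamoxifen cannot be told apart. The ages of the mice are not given in the sources used here.

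These collagens organise the matrix around and between the thick collagen fibrils. Collagen VI chains join into beaded microfilaments near the cell surface, collagen VII forms the anchoring fibrils that tie a basement membrane to the stroma, and collagen VIII forms open networks, mostly around vessels. Collagens XII, XIV and XVI are FACITs, which sit on the surface of fibrils without forming fibrils themselves, and collagens XV and XVIII carry glycosaminoglycan chains and lie at basement membranes. In lung fibrosis, activated fibroblasts are known as a main source of collagen.

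The bases before the start site are shown for Col7a1 and Col8a1, which changed most among the genes with a sequence in RefSeq (GRCm38.p6), and for Col6a2 and Col6a3, whose ratio to Col6a1 is followed, in the direction of the gene. Capitals mark a GC box (GGGCGG, or CCGCCC where it lies on the other strand) or a CCAAT box (CCAAT, or ATTGG), searched on both strands over 250 bases. For Col6a2, 1 of its start sites is shown, and the window of the other held 3 GC boxes.
Col6a2, chr10:76623631-76623880, minus strand: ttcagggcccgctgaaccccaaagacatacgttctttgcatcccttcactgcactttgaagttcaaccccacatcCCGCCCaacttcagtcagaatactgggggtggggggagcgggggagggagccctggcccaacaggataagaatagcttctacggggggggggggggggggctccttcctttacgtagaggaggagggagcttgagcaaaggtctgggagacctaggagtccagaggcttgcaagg
Col6a3, chr1:90843972-90844221, minus strand: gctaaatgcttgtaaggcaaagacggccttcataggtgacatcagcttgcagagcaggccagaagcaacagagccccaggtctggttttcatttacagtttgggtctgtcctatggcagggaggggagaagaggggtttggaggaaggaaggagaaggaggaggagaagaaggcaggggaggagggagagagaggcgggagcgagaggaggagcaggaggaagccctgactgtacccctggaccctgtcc
Col7a1, chr9:108953336-108953585, plus strand: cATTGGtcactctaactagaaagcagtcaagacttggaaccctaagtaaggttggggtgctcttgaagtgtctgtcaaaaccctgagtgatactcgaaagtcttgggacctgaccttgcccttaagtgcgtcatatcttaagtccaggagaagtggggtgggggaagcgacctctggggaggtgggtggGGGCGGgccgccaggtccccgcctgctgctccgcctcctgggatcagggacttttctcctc
Col8a1, chr16:57754738-57754987, minus strand: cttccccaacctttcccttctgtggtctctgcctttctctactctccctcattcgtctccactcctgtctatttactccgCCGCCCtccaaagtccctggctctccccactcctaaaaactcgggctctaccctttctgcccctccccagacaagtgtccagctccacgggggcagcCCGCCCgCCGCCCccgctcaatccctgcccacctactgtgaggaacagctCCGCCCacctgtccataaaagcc
The window of Col8a1 held 4 GC boxes, that of Col7a1 held 1 GC box and 1 CCAAT box, the window shown for Col6a2 held 1 GC box, and that of Col6a3 held neither. A GC box was present in 32.7% and a CCAAT box in 33.8% of 32851 windows of the same length. The AP-1 motif (TGANTCA) was in none of these 4 windows and in 6.75% of all. Among the collagens with a sequence, only the window of Col6a1, not shown, held it. In all, 8 of the 10 genes matched a sequence. Col12a1 and Col14a1 did not.

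Totals ran from 11819700 to 25189096 counts per bulk library. Levels are given as CPM (the count of a gene scaled to a common library size, per 1e6 counts) and fold changes from edgeR's quasi-likelihood test, with Benjamini-Hochberg adjustment over all 15773 genes and a call at an adjusted p of 0.05 or less. The labels do not give the mouse behind each library, and the study's methods count individual animals as n. The smallest p that an exact two-sided permutation test of 4 against 4 libraries can give is 0.0286. Fas itself, counted over the whole gene, was at 3 weeks 41.0 CPM ± 11.3 in Fas+/+ libraries against 44.2 ± 14.2 in Fas-/- libraries (SD, n = 4), and at 6 weeks 31.4 ± 6.24 against 40.4 ± 4.59. The deleted exon is not separated in these counts. A pair of 3-week libraries stood apart. Fas+/+ replicate 1 had a summed level of 10 endothelial markers of 10910 CPM against 2845 to 3695 in the other 3 libraries of its group, and Fas-/- replicate 4 had 9827 against 720.8 to 1277. None of these 10 markers was at 0 in any library. All 10 collagen genes were at the lowest level of their group in each of these libraries. The calls among the 10 collagens at 3 weeks are therefore also given without both. This choice was made after seeing the data. It raises the 3-week means of the 10 collagens and narrows their range, so calls without the pair are not independent support. At 6 weeks, Fas-/- replicate 2 held 3140 CPM of the endothelial markers, against 136.7 to 528.9 in the rest of its group, and was kept.

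Per kilobase of transcript, the naive cells held most RNA for collagen VI. Col6a2 stood at 615.2 CPM per kb ± 80.6 and Col6a1 at 612.7 ± 78.89, which did not differ beyond their spread, followed by Col6a3 at 292.3 ± 33.32 (SD, n = 4). Col14a1 (145.8 ± 23.98) and Col18a1 (113.6 ± 9.642) came next, and Col16a1 (65.91 ± 6.136) and Col15a1 (55.94 ± 17.2) overlapped each other. Col12a1 at 14.28 ± 2.179, Col8a1 at 7.17 ± 1.129 and Col7a1 at 4.516 ± 0.9686 were lowest. After bleomycin, these last 3 genes moved most.

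At 3 weeks after bleomycin, Fas+/+ cells had higher Col7a1, Col8a1, Col12a1 and Col15a1 and lower Col14a1 than naive cells. So 4 of the 10 collagens were called higher, beside 22.1% of all genes, and 1 was called lower, beside 19.2%. Their median log2 fold change was 0.34, against 0.01 over all genes. In Fas-/- cells at 3 weeks, 3 were called higher (17.2% of all genes) and Col14a1 alone was called lower (14.8%), with a median of 0.43 against 0.02. Both comparisons use the same naive libraries. Without the 2 libraries that stood apart, 6 were called higher and 1 lower in Fas+/+ cells, beside 26.1% and 24.6% of all genes, and 7 higher and 1 lower in Fas-/- cells, beside 19.3% and 18.3%. Leaving out any of naive replicates 1, 2 and 3 or Fas-/- replicates 1, 2 and 3 reduced the count in Fas-/- cells from 4 to 2 or 1. How far calls over all genes fell in those fits is not given here.

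**Figure D1:**
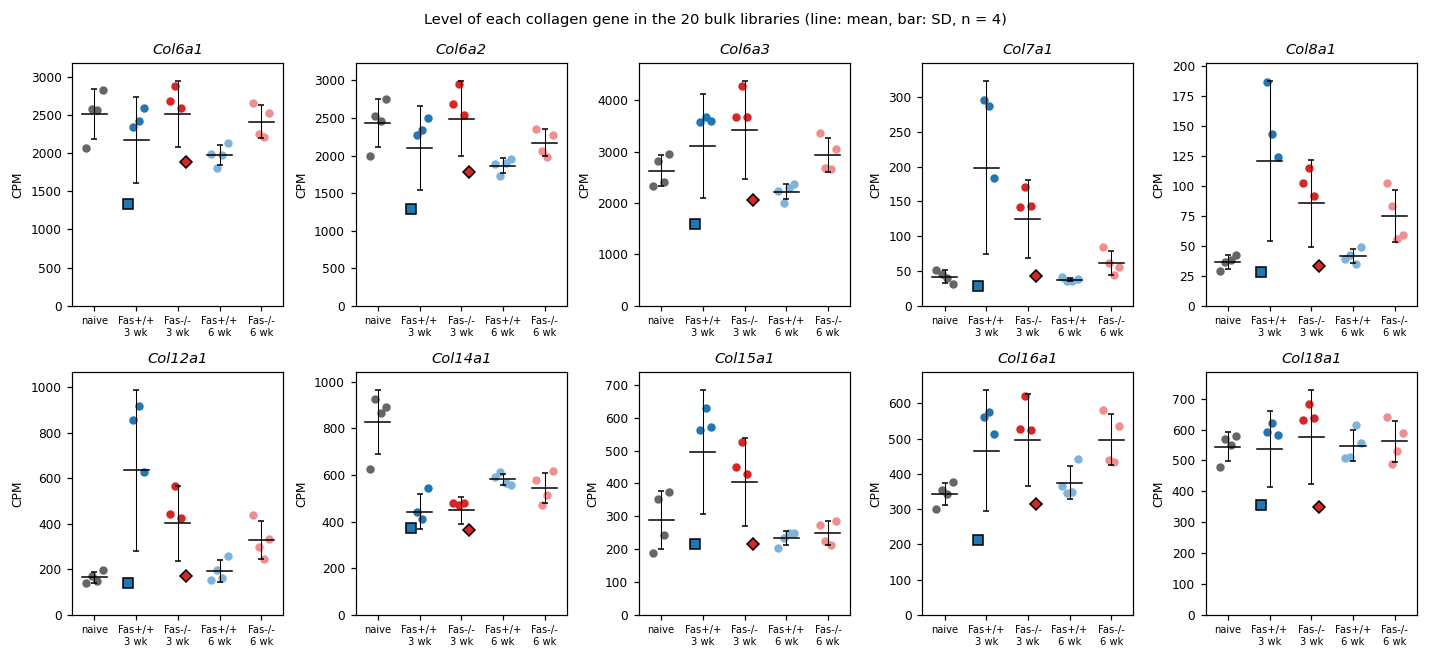
Level of each collagen gene in CPM (y axis, from 0) in every bulk library by group (x axis), with the mean as a line and the SD as a bar (n = 4). The square is Fas+/+ 3-week replicate 1 and the diamond Fas-/- 3-week replicate 4, which lie lowest of their group in all 10 panels. The other 3-week libraries of Col7a1, Col8a1 and Col12a1 lie above all naive libraries.

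Col7a1 (chr9:108953586-108984875, plus strand, Ensembl on GRCm38), whose product forms anchoring fibrils, rose most. The naive libraries held 51.7, 45.1, 39.8 and 30.5 CPM. At 3 weeks the Fas+/+ libraries held 28.02, 296, 287 and 184 CPM, and the Fas-/- libraries 141, 171, 143 and 43.2 CPM. In each genotype 3 of 4 libraries were above every naive library, while Fas+/+ replicate 1 was below all of them and Fas-/- replicate 4 was among them. The log2 fold change was 2.25 (SE 0.499, edgeR adjusted p = 0.001832) in Fas+/+ cells and 1.58 (SE 0.4889, adjusted p = 0.02035) in Fas-/- cells, and the exact permutation test gave 0.143 and 0.0857. Without the pair of libraries it was 2.61 (edgeR adjusted p = 6.151e-08) and 1.86 (adjusted p = 3.692e-06). The call in Fas-/- cells was lost without naive replicate 4 (edgeR adjusted p = 0.05627) or Fas-/- replicate 2 (0.06116). The exons of Col7a1 share 36 bases with Mir711, which had at most 2 counts.

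Col8a1 (chr16:57624258-57754737, minus strand), the alpha 1 chain of the network collagen VIII, followed the same course. It was at 28.9, 36.8, 38.1 and 42.7 CPM in naive libraries, and at 28.5, 187, 143 and 124 CPM in Fas+/+ and 102, 115, 91.3 and 32.8 CPM in Fas-/- libraries at 3 weeks. Again, both libraries that stood apart lay within or below the naive range and the other 6 above it. The log2 fold change was 1.72 (SE 0.4194, edgeR adjusted p = 0.003509) in Fas+/+ and 1.22 (SE 0.4143, adjusted p = 0.03161) in Fas-/- cells, and the exact permutation test gave 0.143 and 0.114. Without both libraries it was 2.04 (edgeR adjusted p = 4.483e-07) and 1.49 (2.633e-05). The call in Fas-/- cells was lost when any of naive replicates 1, 2 and 3 or Fas-/- replicates 1, 2 and 3 was left out, with edgeR adjusted p from 0.06035 to 0.09826. Col8a2, which encodes the other chain of collagen VIII and was named after its value was seen, was at 25.12 CPM in naive and 30.13 in Fas+/+ cells (adjusted p = 0.401).

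Among the FACITs, Col12a1 and Col14a1 moved in opposite directions. Col12a1 (chr9:79598991-79718831, minus strand), which bridges fibrils to other matrix molecules, was at 141, 171, 148 and 197 CPM in naive libraries. It reached 140, 855, 918 and 626 CPM in Fas+/+ and 444, 564, 427 and 169 CPM in Fas-/- libraries at 3 weeks. Of these 8 libraries, 6 were above all naive libraries, and the pair that stood apart was not. The log2 fold change was 1.95 (SE 0.4245, edgeR adjusted p = 0.001601) in Fas+/+ and 1.29 (SE 0.4166, adjusted p = 0.02528) in Fas-/- cells, and the exact permutation test gave 0.143 and 0.0857. Without the pair it was 2.28 (edgeR adjusted p = 2.316e-07) and 1.54 (2.648e-05). As for Col8a1, the call in Fas-/- cells was lost without any of naive replicates 1, 2 and 3 or Fas-/- replicates 1, 2 and 3 (edgeR adjusted p from 0.0507 to 0.08609).

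Col14a1 (chr15:55307750-55520803, plus strand), a FACIT found on fibrils of tendon, skin and loose connective tissue, was the only one of the 10 called lower. The naive libraries held 627, 927, 867 and 891 CPM. The Fas+/+ libraries held 371, 440, 412 and 546 CPM and the Fas-/- libraries 480, 473, 478 and 363 CPM at 3 weeks. Every 3-week library lay below every naive library. The log2 fold change was -0.91 (SE 0.1347, edgeR adjusted p = 6.799e-05) in Fas+/+ and -0.88 (SE 0.1346, adjusted p = 0.0001625) in Fas-/- cells, with an exact permutation p of 0.0286 in each. Without the 2 libraries that stood apart it was -0.83 (edgeR adjusted p = 3.58e-05) and -0.80 (0.0001069). Groups did not overlap for Col14a1 alone among the 10 collagens in each of these comparisons, beside 32.2% of all genes in Fas+/+ and 31.1% in Fas-/- cells. With an epithelial marker term in the fit, the Col14a1 calls were lost at log2 fold changes of -0.67 and -0.63.

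Col16a1 (chr4:130047840-130099283, plus strand), a FACIT of small fibrils and basement membrane zones, was at 343.1 CPM ± 31.94 in naive, 466.2 ± 171.6 in Fas+/+ and 496.6 ± 129.7 in Fas-/- libraries at 3 weeks (SD, n = 4). It did not pass the test in either genotype (edgeR adjusted p = 0.1503 and 0.09793). Without the 2 libraries that stood apart it passed in both, at log2 fold changes of 0.68 (adjusted p = 9.605e-05) and 0.69 (0.0001591).

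The multiplexins differed from each other. Col15a1 (chr4:47208161-47313167, plus strand), a collagen of basement membrane zones of vessel and muscle, was at 188, 352, 242 and 375 CPM in naive libraries and at 215, 563, 631 and 571 CPM in Fas+/+ libraries at 3 weeks, where replicates 2, 3 and 4 were above the naive range. It rose by a log2 fold change of 0.77 (SE 0.2963, edgeR adjusted p = 0.04411, exact permutation p = 0.171). The call was lost when any of naive replicates 1 and 3 or Fas+/+ replicates 2, 3 and 4 was left out (edgeR adjusted p from 0.09872 to 0.1494). In Fas-/- libraries Col15a1 was at 449, 527, 429 and 214 CPM and did not pass (edgeR adjusted p = 0.2215). Without the 2 libraries that stood apart, it passed at 1.02 (adjusted p = 0.0001747) and 0.69 (0.006352). Col18a1 (chr10:77052178-77166548, minus strand), the precursor of the fragment endostatin, was at 544.2 CPM ± 46.19 in naive, 537.6 ± 123.1 in Fas+/+ and 575 ± 152.6 in Fas-/- libraries at 3 weeks, with edgeR adjusted p of 0.949 and 0.7763. Without that pair it passed in Fas-/- cells, at 0.25 (adjusted p = 0.0381), and not in Fas+/+ cells (0.2355). Col15a1 shares 14 exonic bases with Gm12426 on the other strand, which had at most 26 counts.

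None of the collagen VI genes passed the test at 3 weeks. Col6a1 (chr10:76708792-76726168, minus strand) was at 2063, 2585, 2567 and 2834 CPM in naive, 1334, 2341, 2418 and 2596 in Fas+/+ and 2686, 2886, 2591 and 1889 in Fas-/- libraries. Col6a2 (chr10:76595762-76623630, minus strand), its neighbour on the chromosome, was at 2429 ± 318.3, 2101 ± 554.8 and 2490 ± 502.1 CPM (SD, n = 4). The libraries overlapped for both genes. Col6a3 (chr1:90765923-90843971, minus strand), the long chain, was at 2336, 2823, 2418 and 2948 CPM in naive, 1588, 3571, 3671 and 3606 in Fas+/+ and 3669, 4288, 3681 and 2060 in Fas-/- libraries. Apart from the pair that stood apart, the 3-week libraries of Col6a3 were above all naive libraries, and without that pair it was called higher at 0.46 (edgeR adjusted p = 0.001126) in Fas+/+ and 0.55 (0.0003971) in Fas-/- cells. Col6a1 and Col6a2 were not called then either.

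A ratio between chains within a library does not depend on its depth. Col6a2 over Col6a1, per kb, was at 1.004 in naive cells, 1.004 in Fas+/+ and 1.024 in Fas-/- cells at 3 weeks, and 0.982 and 0.9341 at 6 weeks. Col6a3 over Col6a1 was at 0.479 in naive cells, 0.6404 and 0.6107 at 3 weeks and 0.513 and 0.554 at 6 weeks, so that Col6a3 was highest relative to Col6a1 at 3 weeks. The naive libraries ran from 0.4289 to 0.5158 and the Fas+/+ 3-week libraries from 0.5424 to 0.6948, with no overlap. The lowest values at 3 weeks were in the libraries that stood apart, at 0.5424 in Fas+/+ and 0.4966 in Fas-/- cells, against 0.6327 to 0.6948 and 0.6224 to 0.6768 in the others. Over 16 tests of both ratios, 7 reached the smallest exact permutation p of 0.0286, and none passed after Benjamini-Hochberg adjustment (0.0653). At 6 weeks these 7 included Col6a2 over Col6a1, at 0.9228 to 0.9466 in Fas-/- libraries and 0.9507 to 0.998 in Fas+/+ libraries, and Col6a3 over Col6a1, at 0.5423 to 0.5765 and 0.5044 to 0.5286. Across the 20 libraries, which share their groups and cell makeup, Col6a1 and Col6a2 had a Pearson r of 0.983 in log2 CPM, and 0.995 after each group's mean was subtracted.

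**Figure D2:**
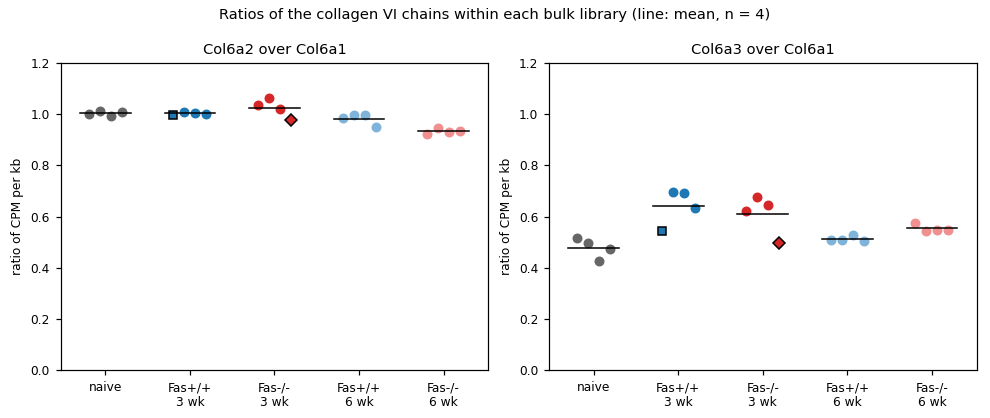
Ratio of Col6a2 (left) and Col6a3 (right) to Col6a1 within each bulk library, in CPM per kb of transcript (y axis, from 0), by group (x axis), with the mean as a line (n = 4). Col6a2 stays near Col6a1 in every library, and Col6a3 is at 0.479 of it in naive and 0.6404 in Fas+/+ 3-week cells.

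From 3 to 6 weeks in Fas+/+ cells, the collagens that had risen fell again. In this comparison 4 of 10 were called lower (10.9% of all genes) and Col14a1 was called higher (12%), with a median of -0.40 against 0.00 over all genes. Col7a1 returned to 41.6, 35.0, 36.1 and 37.9 CPM, a log2 change of -2.40 (edgeR adjusted p = 0.002631). Col8a1 changed by -1.54 (adjusted p = 0.01306) to 39.3, 42.6, 35.0 and 49.2 CPM, and Col12a1 by -1.73 (0.007055) to 153, 195, 162 and 258 CPM. For these genes the 6-week libraries overlapped the 3-week group only through Fas+/+ replicate 1. Col15a1 changed by -1.08 (edgeR adjusted p = 0.01428) and Col14a1 by 0.40 (0.04059), to 591, 611, 566 and 558 CPM, above all 3-week libraries. The exact permutation test gave 0.143 for each of Col7a1, Col8a1 and Col12a1, 0.114 for Col15a1 and 0.0286 for Col14a1. Of the 10 genes, only Col14a1 had groups without overlap, beside 23.5% of all genes. Without Fas+/+ 3-week replicate 2, or without replicate 3, the count of calls fell from 5 to 3, and the Col14a1 call was lost in 7 of the 8 fits that left out 1 library (edgeR adjusted p from 0.06573 to 0.1022). The share of all genes called in these fits is not given here. Without the pair that stood apart, 8 were called lower and 1 higher, beside 17.6% and 18.6% of all genes, and all 3 collagen VI genes were among the 8.

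In Fas-/- cells none of the 10 collagens was called between 3 and 6 weeks, beside 4.48% of all genes called higher and 4.54% called lower. DESeq2 also called none, and 3 had an unadjusted edgeR p under 0.05 (Col7a1, Col14a1 and Col15a1). The median was -0.19 against -0.01 over all genes, and all 10 genes overlapped between the groups, beside 17.4% of all genes that did not. Without the pair, 4 were called lower (9.05% of all genes) and none higher (7.78%). These were Col6a2 at -0.33, Col6a3 at -0.40, Col7a1 at -1.31 and Col15a1 at -0.91, while Col8a1 and Col12a1 were at edgeR adjusted p of 0.1246 and 0.07708.

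At 6 weeks the direct comparison of the genotypes gave 9 of 10 collagens a higher level in Fas-/- cells, and none passed the test. DESeq2 called none either, and none had an unadjusted edgeR p under 0.05. The study, which also used DESeq2, names Col6a1, Col7a1 and Col8a1 among genes higher in Fas-/- cells at 6 weeks. Its methods give no cutoff for these calls, and the reason for the difference was not tested. In the edgeR fit here, 0.0254% of all genes were called higher and 0.0254% lower. The median log2 fold change was 0.35, against 0.00 over all genes. The collagens varied together between libraries. After each group's mean was subtracted, Pearson r between them ran from 0.402 (Col7a1 and Col14a1) to 0.995 (Col6a1 and Col6a2). Counts of these genes are therefore not counts of independent genes. The groups did not overlap for 5 of the 10, beside 6.81% of all genes, and these were Col6a1, Col6a2, Col6a3, Col7a1 and Col8a1.

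Col8a1 had the largest difference of these. It was at 102, 83.1, 55.7 and 58.8 CPM in Fas-/- and 39.3, 42.6, 35.0 and 49.2 CPM in Fas+/+ libraries, a log2 fold change of 0.85 (SE 0.4117, edgeR adjusted p = 0.6341, exact permutation p = 0.0286). Col12a1 was at 439, 296, 244 and 333 CPM against 153, 195, 162 and 258, with only Fas-/- replicate 3 below the highest Fas+/+ library (0.77, edgeR adjusted p = 0.7102, exact permutation p = 0.0571). Col7a1 was at 84.2, 60.9, 44.1 and 55.8 CPM in Fas-/- libraries, all above the Fas+/+ libraries (0.70, edgeR adjusted p = 0.8453, exact permutation p = 0.0286). In CPM, each of these genes spread more widely among Fas-/- than among Fas+/+ libraries, with a higher mean there too. Relative to its mean, Col12a1 spread about equally in both. Col6a3 (0.40), Col6a1 (0.29) and Col6a2 (0.22) were separated by smaller steps, with Col6a3 at 3360, 2681, 2656 and 3056 CPM against 2234, 2010, 2288 and 2362. Col16a1 was 0.41 higher with overlap, and Col14a1 (-0.09), Col15a1 (0.09) and Col18a1 (0.04) differed least.

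The other cells in the sort also differed between the 6-week groups. All 10 epithelial markers were lower in Fas-/- cells, with a median log2 fold change of -1.71, none called, and a summed level of 152 to 448.9 CPM against 588.6 to 1618, while endothelial markers ranged over 136.7 to 3140 against 552.7 to 2025 CPM. All 9 blood cell markers were also lower (median -1.80, 42.67 to 159.2 against 116 to 333.3 CPM), as were all 6 smooth muscle markers (median -0.43, 1388 to 2014 against 1921 to 2231 CPM), with none called. The 6 profibrotic fibroblast markers had a median of 0.53, with 4 higher, none called and sums of 6441 to 8745 against 4434 to 6877 CPM. Epcam was at 0 in 1 of the 20 libraries, as were Tyrobp and Coro1a, and Cd52 in 2. Their part in the collagen difference was not tested. With a term for the epithelial markers in the fit, Col8a1 was at 0.38, Col12a1 at 0.19 and Col7a1 at 0.13. Col6a3, Col16a1 and Col6a1 came to 0.024, 0.018 and 0.014, and Col14a1 to -0.19. Col6a2, Col15a1 and Col18a1 turned to -0.060, -0.37 and -0.23. In bulk RNA, fewer cells of a type and less RNA per cell cannot be told apart.

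At 3 weeks none of the 10 was called between genotypes, by edgeR or DESeq2, and none had an unadjusted edgeR p under 0.05, beside 0.165% of all genes called higher and 0.00634% lower in Fas-/- cells. The median was 0.06 against 0.00 over all genes, and no collagen had groups without overlap, beside 3.92% of all genes. Without both libraries that stood apart none was called, beside 2.55% of all genes higher and 1.23% lower, with Col7a1 at -0.75 (edgeR adjusted p = 0.05658) and Col12a1 at -0.74 (0.06625). The difference between genotypes was then compared between the time points. None was called, beside 0% of all genes higher and 0.00634% lower, and 2 (Col8a1 and Col12a1) had an unadjusted edgeR p under 0.05, with none called by DESeq2. Col12a1 was at 1.44 (edgeR adjusted p = 0.5461), Col7a1 at 1.37 (0.6764) and Col8a1 at 1.35 (0.6) on the log2 scale. Without Fas+/+ 3-week replicate 1, Col12a1 was called, at 1.77 (edgeR adjusted p = 0.04755). Both libraries that stood apart were then left out, a choice made after seeing the data. All 3 were called, at 1.52 (0.01796), 1.46 (0.01918) and 1.41 (0.01935), beside 0.74% of all genes called higher and 1.72% lower.

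**Figure D3:**
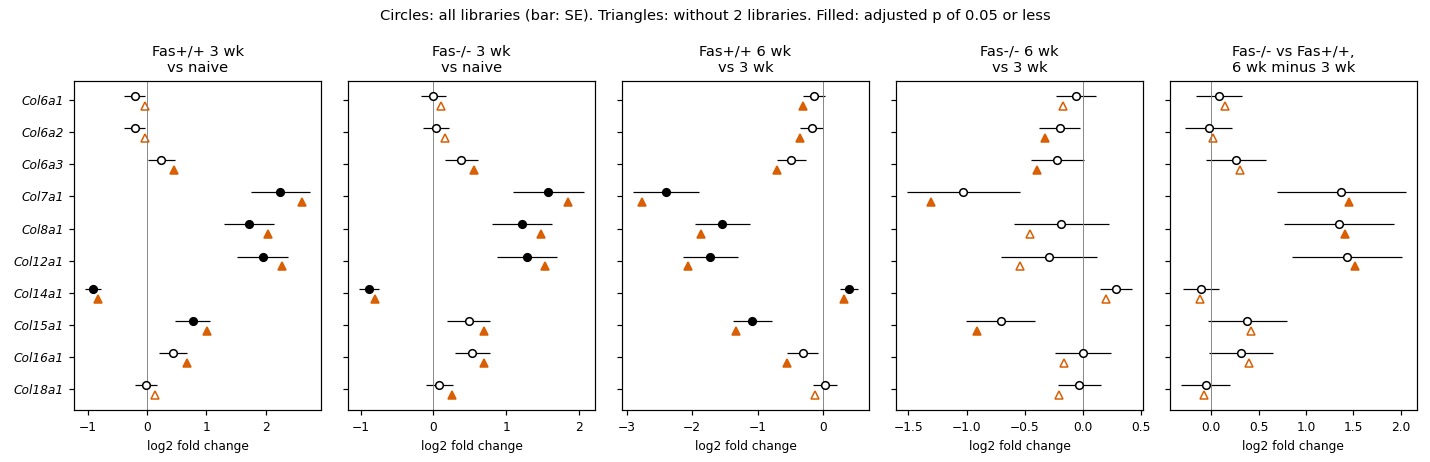
Log2 fold change of each collagen gene in 5 comparisons (x axis), from edgeR with all 20 libraries (circles, bar: SE) and without the 2 libraries that stood apart (triangles). Filled symbols passed an adjusted p of 0.05 or less. Col14a1 lies opposite in sign to Col7a1, Col8a1 and Col12a1 in all 5 panels, with no filled circle in the last 2.

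At 6 weeks against naive cells, Col14a1 was the only collagen called in either genotype. It was lower in Fas+/+ cells at -0.51 (SE 0.1339, edgeR adjusted p = 0.03207) and in Fas-/- cells, at 579, 472, 515 and 617 CPM, at -0.60 (SE 0.134, adjusted p = 0.01236), and all 6-week libraries lay below all naive ones. Of all genes, 1.74% were called lower and 3.57% higher in Fas+/+, and 2.81% and 3.66% in Fas-/- cells. The medians were -0.20 and 0.10, and the groups did not overlap for 2 and 4 of the 10, beside 16.6% and 16.1% of all genes. In Fas+/+ cells these were Col14a1 and Col6a2, the latter lower but not called (edgeR adjusted p = 0.2423). In Fas-/- cells these 4 were Col8a1, Col12a1 and Col16a1, all higher than naive but not called (edgeR adjusted p = 0.1524, 0.1712 and 0.2075), and Col14a1. The means in Fas-/- and naive cells were 74.97 and 36.63 CPM for Col8a1, 328.1 and 164.3 for Col12a1, and 497.6 and 343.1 for Col16a1. These 3 genes were called, with Col14a1, when only the naive and Fas-/- 6-week libraries were fitted. Their edgeR adjusted p was then 0.01425, 0.008807 and 0.01819, beside 8.86% of all genes called. With an endothelial marker term they were at 0.04595, 0.03927 and 0.03059, beside 9.19%, and Col14a1 was called too. With an epithelial marker term only Col16a1 was called (edgeR adjusted p = 0.04103), beside 3.29% of all genes. Col8a1, Col12a1 and Col14a1 were then at 0.09956, 0.07374 and 0.2125. DESeq2 called 1 of the 10 collagens in this comparison. The Col14a1 call was lost in 7 of the 8 fits that left out 1 library in Fas+/+ cells, all but naive replicate 1 (adjusted p from 0.05065 to 0.1044), and in Fas-/- cells without Fas-/- replicate 2 (0.05747).

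Levels of the collagens also varied with some of the marker lists within groups. Marker RNA does not tell the number of such cells from expression within them. After each group's mean was subtracted, log2 levels were correlated with the mean log2 CPM of a marker list. The Pearson r with the 10 endothelial markers ran from -0.48 (Col14a1) to -0.72 (Col18a1). That with 6 profibrotic fibroblast markers (Cthrc1, Spp1, Postn, Ltbp2, Grem1 and Thbs1) ran from 0.55 (Col14a1) to 0.98 (Col12a1). With epithelial markers r ran from -0.31 (Col14a1) to -0.65 (Col6a3), and with smooth muscle markers from 0.35 (Col7a1) to 0.64 (Col18a1). With blood cell markers it ran from -0.08 (Col6a1) to 0.15 (Col8a1), and with mesothelial markers from -0.12 (Col7a1) to 0.40 (Col14a1). These values describe 20 libraries that share their depth scaling, and the 2 that stood apart weigh in them. Against naive cells, all 10 endothelial markers were called higher in Fas+/+ cells at 3 weeks (median log2 fold change 4.56), beside 8 of 10 epithelial markers, and 5 of 6 mesothelial and 4 of 6 smooth muscle markers were called lower. Of 9 blood cell markers, 5 were called higher and 3 lower, and 5 of 6 profibrotic fibroblast markers were called higher (median 3.30). Their part in the collagen changes was not tested. With a term for the endothelial markers in the fit, 8 of the 10 collagens were called in Fas+/+ and 7 in Fas-/- cells at 3 weeks against naive cells, in place of 5 and 4, beside 26.3% and 27.6% of all genes called in either direction in that fit.

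**Figure D4:**
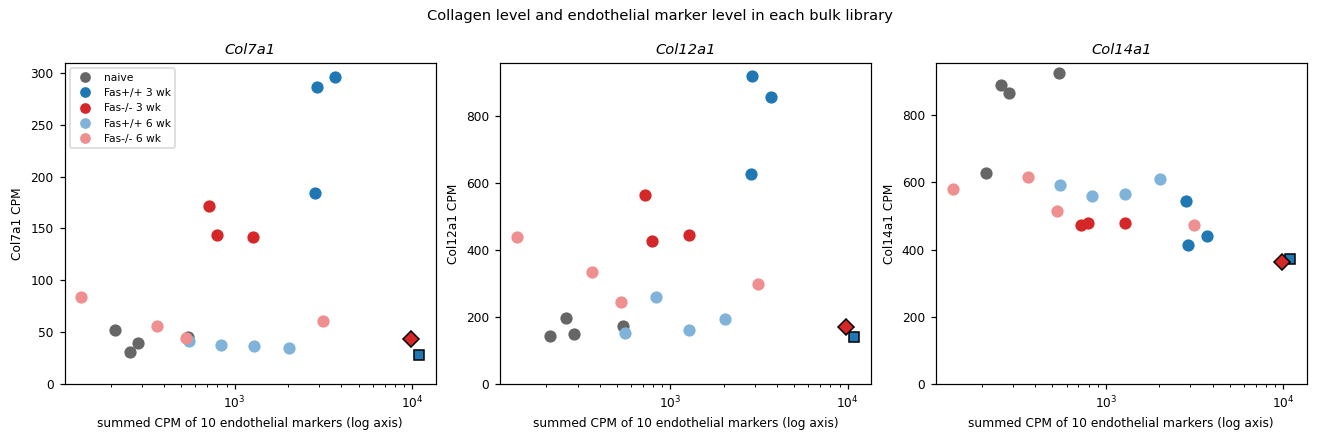
Level of Col7a1, Col12a1 and Col14a1 in CPM (y axis, from 0) against the summed CPM of 10 endothelial markers (x axis, log scale) in each of the 20 bulk libraries, coloured by group. The square (Fas+/+ replicate 1) and the diamond (Fas-/- replicate 4) hold 10910 and 9827 CPM of endothelial markers and have low Col7a1 and Col12a1 beside the other 3-week libraries.

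Genes whose log2 levels were most like each collagen over the 20 libraries are given as a description. For Col7a1 they were Inhba (Pearson r 0.972), Nrep and Cd276, and for Col12a1 they were Col8a1 (0.977), Thbs2 (0.975) and Nudt4. Col6a3 lay nearest to the fibrillar collagen gene Col3a1 (0.958), Col15a1 to Col1a1 (0.945) and Col16a1 to Pmepa1 (0.969). Col14a1 had other neighbours, Srpx (0.959), Serpinf1 (0.937) and Ccdc3 (0.918). Col18a1 lay nearest to Rcn3 (0.93).

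Other collagens and their partners were read from lists, in Fas+/+ cells at 3 weeks against naive cells, with all 20 libraries. Their counts stand beside 22.1% of all genes called higher and 19.2% called lower. Of 11 fibrillar collagens, 6 were called higher and none lower, with a median of 1.04. Those with the smallest p were Col24a1, from 2.877 to 31.04 CPM (edgeR adjusted p = 0.0001126), and Col11a1, from 0.63 to 28.27 CPM (0.0001557), a partner chain of thin fibrils. Named after their values were seen, Col1a1 rose from a mean of 5919 to 12150 CPM (edgeR adjusted p = 0.03774), and Col5a2, from 728.2 to 1732 CPM (0.005475). Of 20 other collagens tested, 4 were called higher and 6 lower. The basement membrane collagens Col4a2, from 1479 to 2960 CPM (adjusted p = 2.095e-05), and Col4a1, from 2217 to 4112 CPM (2.854e-05), rose with the smallest p. Outside that rule, the hemidesmosomal Col17a1 fell from 46.48 to 12.8 CPM (0.0001003), and the remaining collagen VI genes Col6a4, Col6a5 and Col6a6 did not pass (adjusted p = 0.8037, 0.8961 and 0.08284).

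Of 24 receptors and binding partners, 7 were called higher and 4 lower, shares near those of all genes. Those with the smallest p were Tnxb, encoding tenascin-X, which fell from 1948 to 846 CPM (edgeR adjusted p = 1.434e-05), and the gene of tenascin-C, Tnc, which was called higher. The collagen VI receptor Antxr2, named after its value was seen, fell from 199.6 to 134 CPM (adjusted p = 0.0004514). Of 19 genes for collagen folding, modification and processing, 8 were called higher and 4 lower, with the prolyl hydroxylase subunit P4ha3 rising from 15.27 to 71.43 CPM (0.001703) and the procollagen processing enhancer Pcolce2 falling from 1401 to 404.9 CPM (1.273e-05). In Fas-/- against Fas+/+ cells at 6 weeks none of the genes of these 4 lists was called, and 10 of 11 fibrillar collagens were higher, with a median of 0.58.

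The single-cell libraries show which cells held the collagen RNA. The week of each of these libraries rests on its label, which no test here checked. Of 13900 barcodes, 12059 passed the study's filters (603 naive, 2664 and 2608 at 3 weeks and 3240 and 2944 at 6 weeks for Fas+/+ and Fas-/-), with medians of 5768 to 8896 unique molecular identifiers (UMIs) per cell. Cells were grouped again into 23 clusters without the collagen genes among the clustering features, and clusters were named from marker lists, so names may differ from those of the study. Between 91 and 289 barcodes were shared by each pair of libraries, and 1540 kept cells (12.8%) had a barcode found in another library, 350 of them among the 603 naive cells. Of the 9 classes with enough cells in each of the 4 bleomycin libraries, the naive library had enough cells of 6, and held only 11 profibrotic fibroblast-like cells. With 1 library per group no test is possible, and the 95% Poisson intervals, with UMIs summed per class and scaled to the total of the class as for CPM (UMI CPM), cover counting error only.

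**Figure D5:**
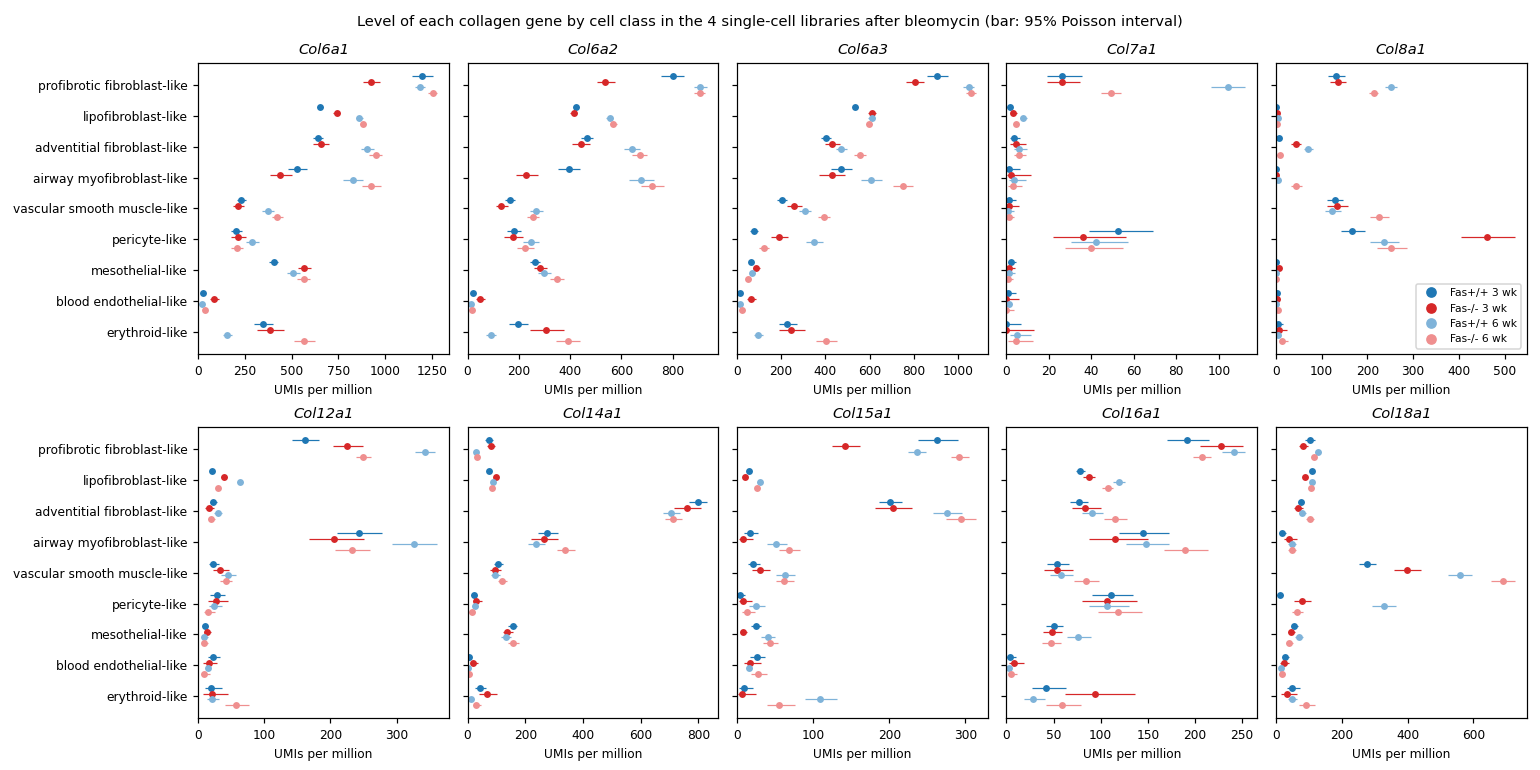
UMI CPM of each collagen gene (x axis, from 0) in 9 cell classes (y axis) of the 4 single-cell libraries after bleomycin (colours), with 95% Poisson intervals as bars. Collagen VI genes and Col16a1 are highest in profibrotic fibroblast-like cells, Col14a1 in adventitial fibroblast-like cells and Col18a1 in vascular smooth muscle-like cells.

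Profibrotic fibroblast-like cells, a cluster led by Spp1, Thbs4 and Cthrc1, held the highest levels of all 3 collagen VI genes in each of the 4 bleomycin libraries. Col6a1 was at 1197 and 923.7 UMI CPM at 3 weeks and 1185 and 1253 at 6 weeks in Fas+/+ and Fas-/- cells, and Col6a2 and Col6a3 ranged over 537.6 to 908.6 and 805.2 to 1059. The interval lay apart from that of the second class in all 12 cases. Lipofibroblast-like cells, the largest class, held 651 to 881.4 for Col6a1, and adventitial fibroblast-like cells 642.4 to 948.3. The lipofibroblast-like class took in a cluster of 1266 cells led by Rbp4 and one of 994 cells led by Saa3 and Lcn2. These were named on 3 and 4 higher markers, and neither had a lipofibroblast marker among its leading genes. Mesothelial-like cells held Col6a1 at 404 to 567.2 but Col6a3 at only 51.61 to 87.4. Blood endothelial-like cells, used as a background, held 20.33 to 83.46 for Col6a1, and erythroid-like cells 156.1 to 566.9.

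Col7a1 was concentrated in profibrotic fibroblast-like and pericyte-like cells, and Col8a1 in these and in vascular smooth muscle-like cells. In profibrotic cells Col7a1 was at 26.35, 26.01, 104.2 and 48.99 UMI CPM in Fas+/+ and Fas-/- at 3 weeks and Fas+/+ and Fas-/- at 6 weeks, and in pericyte-like cells at 52.5, 36.2, 42.2 and 39.6. The other 7 of the 9 classes were at or under 7.968. Pericyte-like cells led at 3 weeks and profibrotic cells at 6 weeks, with intervals apart in the Fas+/+ library of each time. For Col8a1 the pericyte-like cells held 167, 460.5, 235.5 and 251.8 and led in 3 of 4 libraries, with an interval apart only in the Fas-/- library at 3 weeks. Profibrotic cells held 132.4 to 251.2 and vascular smooth muscle-like cells 123.2 to 226.4, while lipofibroblast-like cells were at 0.8596 to 4.527. In the Fas-/- library at 6 weeks the vascular smooth muscle-like cells were above the profibrotic cells. In the naive library Col7a1 was at 71.06 in pericyte-like cells, and they held 23 of its 34 UMIs, and they were at 116.2 once cells with a shared barcode were left out.

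Of the 9 classes, profibrotic (161.3 to 342.7 UMI CPM) and airway myofibroblast-like cells (206 to 325.9) had the highest Col12a1. Epithelial-like cells were left out of the 9 for too few cells. In the Fas+/+ library at 3 weeks they held 114 of 1057 Col12a1 UMIs (10.8%), from 2.98% of all UMIs. Airway myofibroblast-like cells led in the Fas+/+ library at 3 weeks, with intervals apart, and profibrotic cells in the other 3, with intervals that overlapped. In the naive library, airway myofibroblast-like cells were at 186.6. Col16a1 was highest in profibrotic cells (191.5 to 241), with the interval apart in 2 of 4 libraries.

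Col14a1 marked adventitial fibroblast-like cells, clusters led by Scara5 and Pi16 or by Adh7 and Apod. They held 797.1, 760.3, 705.9 and 712.7 UMI CPM in Fas+/+ and Fas-/- at 3 weeks and Fas+/+ and Fas-/- at 6 weeks, and 749.2 in the naive library. The second class, airway myofibroblast-like cells, held 237.9 to 338.9, profibrotic cells 29.39 to 81.5, and blood endothelial-like cells 2.837 to 20.47. Adventitial cells supplied 40.9% to 58.3% of all Col14a1 UMIs of a library. Among naive cells, only 8 adventitial cells had a barcode of their own library alone, at 1271.

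Col15a1 was held by adventitial (201.1 to 293.9) and profibrotic cells (142.2 to 292.1), and adventitial cells led in 3 of 4 bleomycin libraries. In the Fas-/- library at 6 weeks the lead was 293.9 against 292.1, with intervals that overlapped. Profibrotic cells led in the Fas+/+ library at 3 weeks, at 262.9 against 201.1, with intervals apart. Col18a1 was highest in vascular smooth muscle-like cells in all 4 bleomycin libraries, with intervals apart from the second class. It was at 277 and 399.3 at 3 weeks and 558 and 688.7 at 6 weeks for Fas+/+ and Fas-/-. In the naive library it was at 519.6 in these cells. Of the 782 cells of this class, 389 were in a cluster led by Rgs5 and Ccl19. Its leading genes held 2 smooth muscle markers and 1 pericyte marker, Notch3. Levels were not split by cluster, here or for Col8a1.

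Summed over all cells of a library, Col7a1, Col8a1, Col12a1 and Col15a1 were higher at 6 than at 3 weeks in both genotypes. So were the collagen VI genes, Col16a1 and Col18a1. Col14a1 was lower at 6 weeks in both. For every collagen called in bulk between these times in Fas+/+ cells, this is the opposite order to the bulk libraries. Col15a1 was at 53.64 and 89.25 UMI CPM at 3 and 6 weeks in Fas+/+ cells, and at 42.22 and 119.7 in Fas-/- cells. An exchange of labels was not tested, so single-cell values by week carry that limit. In Fas+/+ cells, Col7a1 was at 5.293 UMI CPM at 3 weeks (142 UMIs) and 24.08 at 6 weeks (843 UMIs), while the bulk means were 198.7 and 37.66 CPM. Col12a1 was at 39.40 and 103.2, against 634.8 and 191.9 CPM in bulk. The bulk rise from naive to 3 weeks was seen for only some of these genes in single cells. Col7a1 was at 6.055 in the naive library and at 5.293 and 6.266 at 3 weeks in Fas+/+ and Fas-/- cells. Col15a1 was at 61.61 in the naive library, above both 3-week libraries. Col8a1 went from 14.96 to 22.77 and 40.76, and Col12a1 from 30.45 to 39.40 and 55.99. Profibrotic cells made up 5.8% of the UMIs in the Fas+/+ library at 3 weeks and 18% at 6 weeks, and 10.1% and 24.2% in the Fas-/- libraries. They supplied 28.9% and 77.8% of the Col7a1 UMIs in Fas+/+ cells. The part of this share in the order was not tested. Blood endothelial-like cells held 4.44% and 18.1% of the UMIs at 3 and 6 weeks in Fas+/+ libraries, and 3.72% and 3.11% in Fas-/- libraries. In bulk the median summed endothelial markers fell in both, from 3295 to 1060 and from 1035 to 446.6 CPM. Mesothelial-like cells held 9.48% and 5.2%, and 10.5% and 5.29%. Their summed markers rose in bulk, from 284.3 to 663.8 and from 373.4 to 775.1 CPM. The bearing of these shares on the week labels was not tested. Col14a1, at 173.8 in the naive library, was at 172.2 and 152.5 at 3 weeks and 112.3 and 138.2 at 6 weeks for Fas+/+ and Fas-/-. The interval of the Fas+/+ library at 3 weeks (167.3 to 177.3) overlapped that of the naive library (163.1 to 185.1), and those of the other 3 lay below it.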

How the data were processed

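Lin- lung cells were profiled by stranded mRNA-Seq in 20 libraries and by 10x single-cell RNA-seq in 5. For the bulk libraries, raw read counts per gene were deposited, which the authors obtained by htseq-count on Ensembl annotation after skewer trimming and HISAT2 alignment (GRCm38). The strand setting is not given in the sources used here, so reads of overlapping genes on opposite strands cannot be told apart. For single cells the authors deposited UMI counts from Cell Ranger on GRCm38.

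Bulk counts were tested with edgeR 4.0.16 in R 4.3.3 (TMM, filterByExpr with a minimum count of 10, quasi-likelihood F-test) in 1 model over the 5 groups, with Benjamini-Hochberg adjustment over all genes tested. Log2 CPM used a prior count of 2. DESeq2 1.42.0 served as an alternative. Levels per kb used the length of the principal transcript. The test was checked on simulated data. Replicates differed beyond sampling noise in every pair (chi-square per gene from 7.23 to 197).

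The study's filters were applied (from 200 to 7500 genes and no more than 20% mitochondrial UMIs per cell; genes seen in 4 or more cells). Cells were integrated and clustered with Seurat 5.3.0 (SCTransform, 3000 features, 20 components, resolution 0.8), leaving 165 collagen and marker genes out of the features. A cluster was named where at least 3 markers of a fixed list were higher, with a mean log2 difference of at least 0.5. Its leading genes could not hold more markers of another class than of its own. Clusters of low UMI count with no own marker among their leading genes also stayed unnamed. In all, 1013 cells were unnamed. Among them were 375 cells with higher blood endothelial markers, 244 of these in the Fas+/+ library at 6 weeks. The study's sort excluded doublets. Scrublet marked 49 cells (0.406%), too few to be taken as a working call, so doublets were limited by the cap on genes alone. UMIs were summed per class and library.

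The genes and lists were chosen with earlier results of these data known. Named genes were all 10 collagens, the 3 genes most correlated with each and, of each other list, the 2 called genes with the smallest p at 3 weeks in Fas+/+ against naive cells; genes named outside this rule are marked as such. The deposited table of normalized counts was not used. Replicate numbers did not pair libraries (mean correlation of deviations 0.00061 over 40 same-numbered pairs, 0.00553 over 120 others), so no block was fitted in the main model.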

Additional observations from a re-analysis of the deposited data

Results flagged for a closer look

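In 6 of 50 sets of 4 bulk libraries (10 collagens in 5 groups), 1 library lay far from the other 3 by Dixon's criterion. Chance gives about 1 in 20 for a single set. The sets share their libraries and the genes vary together, so the count cannot be set against that rate. All 6 were in the pair of 3-week libraries with the most endothelial marker RNA. Fas+/+ replicate 1 was low for Col6a3 (1588 CPM), Col15a1 (214.6 CPM), Col16a1 (211.9 CPM) and Col18a1 (354.6 CPM). Fas-/- replicate 4 was low for Col14a1 (362.9 CPM) and Col18a1 (348.5 CPM). In Fas+/+ replicate 1 the collagens ranged from 9.77% (Col7a1) to 84.3% (Col14a1) of the median of the other 3 libraries of its group, and in Fas-/- replicate 4 from 30.1% (Col7a1) to 76% (Col14a1).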

How the results depend on the processing

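Leaving out 1 library at a time, counts of called collagens ranged from 4 to 7 (Fas+/+ at 3 weeks against naive), 1 to 5 (Fas-/- at 3 weeks against naive), 0 to 1 (each genotype at 6 weeks against naive), 3 to 6 (Fas+/+ at 6 against 3 weeks) and 0 to 1 (the genotype difference at 6 less that at 3 weeks), and stayed at 0 in the other 3 comparisons. The share of all genes called is not given here for these fits or for the block fit below. A fall in calls over all genes therefore cannot be told apart in them. With an endothelial marker term the counts were 8 (Fas+/+) and 7 (Fas-/-) at 3 weeks against naive, beside 26.3% and 27.6% of all genes. At 6 weeks against naive they were 0 (Fas+/+) and 4 (Fas-/-), beside 5.36% and 9.19%. For Fas-/- at 6 against 3 weeks the count was 1, beside 10.1%. An epithelial term gave 0 for Fas+/+ at 6 weeks against naive, beside 0.0507% of all genes. It gave 1 for Fas-/- at 6 against 3 weeks, beside 8.79%. Fits to the compared groups alone gave 2 (Fas+/+) and 4 (Fas-/-) at 6 weeks against naive, beside 10.7% and 8.86% of all genes. Without both 3-week libraries that stood apart, chosen after seeing the data, the count was 8 for Fas-/- at 3 weeks against naive. It was 9 and 4 for Fas+/+ and Fas-/- at 6 against 3 weeks, and 3 for the difference of differences. The shares of all genes without this pair stand with the comparisons above. With the replicate number as a block the count for Fas+/+ at 6 weeks against naive was 0, and the libraries shared only a number. For Fas-/- against Fas+/+ at 6 weeks, the log2 fold change turned to -0.10 (Col15a1) and -0.13 (Col18a1) with the endothelial term and to -0.060 (Col6a2), -0.37 (Col15a1) and -0.23 (Col18a1) with the epithelial term, and Col18a1 ranged from -0.031 to 0.096 without 1 library at a time. The genes that stayed higher had smaller log2 fold changes with each of these terms than in the main fit. The cause was not tested. Of the remaining counts, 55 under other settings and 63 without 1 library stayed within 1.5 times the main count. In single cells, 392 of 450 class levels stayed within their interval without cells of shared barcodes, and 58 moved, against 6 without marked doublets and 1 at resolution 0.4. Depth limits Col7a1, with 34 UMIs in the naive library.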
